A study of Mus musculus with 12 samples.

Results

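Osteopontin, encoded by Spp1, is a secreted phosphoprotein of milk, bone and inflamed tissue, and it is described here with the receptors through which cells bind it. The group holds 7 genes of the 23301 gene names found in all 12 expression files, picked by name, without a threshold on their levels but with earlier results of these data known: the ligand gene Spp1, the receptor gene Cd44, the integrin alpha subunit genes Itgav and Itga9, and the beta subunit genes Itgb1, Itgb3 and Itgb5. Each of the 7 names had 1 row in every file, and all 7 passed the filter on low values in both comparisons.

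RNA-seq of poly-A RNA was done on mammary tissue of 12-week-old female mice, in 2 experiments with 3 replicates in each of 4 groups. The first experiment set normal glands of untreated wild type FVB mice (Normal) against tumors of untreated MMTV-PyVT mice (Tumor). The second set tumors of MMTV-PyVT mice injected with DMSO, the solvent (DMSO), against tumors of MMTV-PyVT mice injected with C646, an inhibitor of the histone acetyltransferase p300 (C646). The labels give a dose of 1 mg/kg for the DMSO and the C646 injections alike. All tumors therefore carry the same transgene, the polyoma virus middle T antigen under a viral promoter that is active in mammary epithelium. Each Normal replicate pooled abdominal and inguinal glands of 3 mice, whereas each Tumor replicate was a thoracic tumor of 1 mouse, so tissue, gland position and pooling cannot be told apart. The DMSO and C646 samples were the biggest tumor of each mouse.

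Osteopontin carries a short integrin-binding motif that is recognised by integrins made of alpha-v with beta-1, beta-3 or beta-5, and cleavage by thrombin or matrix proteases exposes a neighbouring site for alpha-9 beta-1. Cd44 is the main receptor for hyaluronan and has been described as a further receptor for osteopontin. In the mammary gland Spp1 is a gene of the secretory luminal epithelium, and macrophages are another well known source of the protein. An integrin is a pair of 1 alpha and 1 beta subunit, so the RNA levels below are those of single subunits and not of assembled receptors.

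Spp1 lies on mouse chromosome 5 (GRCm38, the assembly also called mm10, chr5:104435118-104441050, plus strand, a protein-coding gene in GENCODE vM21). Cd44 lies at chr2:102811141-102901665 on the minus strand, Itgav at chr2:83724397-83806916, Itgb1 at chr8:128685654-128733200, Itgb3 at chr11:104608000-104670476, Itgb5 at chr16:33829665-33949338 and Itga9 at chr9:118606690-118901003, these on the plus strand. Of the 7 genes, 6 were in the RefSeq promoter table of GRCm38.p6, and Itgb3 was not. The 250 bases before the RefSeq start of Spp1, the gene with the widest range of levels, and of Itgb5, of the 3 beta subunit genes the one with the largest difference between tumor and normal, are shown because their letters differ plainly. Capitals mark matches on either strand to the 7 motifs searched, which were TATAAA, the AP-1 site TGANTCA, the RUNX site AACCACA, the E-box CACGTG, the GC box GGGCGG, the STAT site TTCNNNGAA and the TEAD site GGAATG.
Spp1 promoter, chr5:104434861-104435110, plus strand: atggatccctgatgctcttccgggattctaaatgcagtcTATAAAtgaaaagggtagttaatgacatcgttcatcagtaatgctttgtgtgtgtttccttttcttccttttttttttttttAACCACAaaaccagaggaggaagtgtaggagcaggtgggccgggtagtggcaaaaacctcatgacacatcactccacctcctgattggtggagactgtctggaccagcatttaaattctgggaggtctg
Itgb5 promoter, chr16:33829415-33829664, plus strand: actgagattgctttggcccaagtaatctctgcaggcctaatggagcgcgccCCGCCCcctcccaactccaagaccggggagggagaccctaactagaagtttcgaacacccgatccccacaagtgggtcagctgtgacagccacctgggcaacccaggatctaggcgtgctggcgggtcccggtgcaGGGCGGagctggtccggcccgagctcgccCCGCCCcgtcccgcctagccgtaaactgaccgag

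The Spp1 window holds TATAAA at positions -211 to -206 and the RUNX site at -129 to -123, where -1 is the last base printed, and its GC content is 43.6%. This window ends at the RefSeq start, which lies a few bases before the GENCODE start given above. The Itgb5 window holds 3 GC boxes, at -199 to -194 and -34 to -29 as CCGCCC and at -63 to -58 as GGGCGG, and its GC content is 65.2%. Of 32851 promoter windows, 12.4% hold TATAAA, 6.75% TGANTCA, 4.40% AACCACA, 6.02% CACGTG, 32.7% GGGCGG, 7.02% TTCNNNGAA and 12.6% GGAATG. The Itgb1 window has 1 GC box and 1 TEAD site, and the windows of Cd44, Itgav and Itga9 have no match to these letters. The Itga9 window, chr9:118711442-118711691, belongs to a start inside the GENCODE gene, and the stretch before the GENCODE start was not searched. The window of a second RefSeq start of Spp1, further into the gene, has no match either. A match describes letters only, and binding was not measured in the files used here.

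The values are FPKM, the fragments of a gene per unit of its length and of the mapped fragments of the library, so levels of different genes can be set side by side per length. The summed FPKM of a sample was between 526855 and 783719, and between 11853 and 12792 names reached 1 FPKM. Total read depth is not in the files. Tumor tissue and normal gland differed broadly in the cell types their RNA showed. Summed over 8 luminal epithelium markers, FPKM was 457 to 967 in Normal and 3147 to 4296 in Tumor. Over 8 adipocyte markers it fell from between 17863 and 23008 to between 176 and 1423, and over 8 T and B cell markers from between 362 and 470 to between 0.982 and 1.94, with Ms4a1 listed at 0 in all Tumor samples. Over 8 skeletal muscle markers, which define no cell of the gland itself, it was 13.8 to 106 in Normal and 1920 to 5630 in Tumor. All 8 endothelial markers and both platelet markers tested were called lower in Tumor, and of 8 myoepithelial markers 2 were called higher and 4 lower. In bulk tissue, fewer cells of a type and less RNA per cell cannot be told apart.

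Tumors held far more osteopontin RNA than normal glands. Spp1 was at 15.2, 15.1 and 26.6 FPKM in the Normal replicates and at 3304, 3745 and 3313 FPKM in the Tumor replicates. The lowest Tumor sample lay far above the highest Normal sample, and the Tumor samples varied less in relative terms, with a coefficient of variation of 7.30% against 35.0%. On the log2(FPKM + 2^-5) scale the level of Spp1 was 7.56 ± 0.24 (SE, n = 3 against 3) higher in Tumor, a 189-fold difference (limma, Benjamini-Hochberg adjusted p = 7.07e-06). This was the 18th largest rise among 13031 names tested. Spp1 ranked between 3214 and 5326 among all names by level in Normal and between 9 and 26 in Tumor, where it made up 0.422% to 0.547% of all FPKM.

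The receptor genes moved far less than the ligand gene, and not all in the same direction. Over the 7 genes, 5 were called higher in Tumor and 1 lower by limma at an adjusted p under 0.05. The background is wide: 28.8% of all names tested were called higher, 31.7% lower and 60.5% in either direction, and 64.8% had an unadjusted p under 0.05. The median log2 fold change was 0.76 over the 7 genes and -0.02 over all names. With FPKM rescaled to the same sum in each sample, the median of all names moved to -0.29, the share of higher among called names from 47.7% to 35.3%, and the genes called higher from 5 to 3. Leaving out Normal replicate 3 also left 3.

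**Figure D1:**
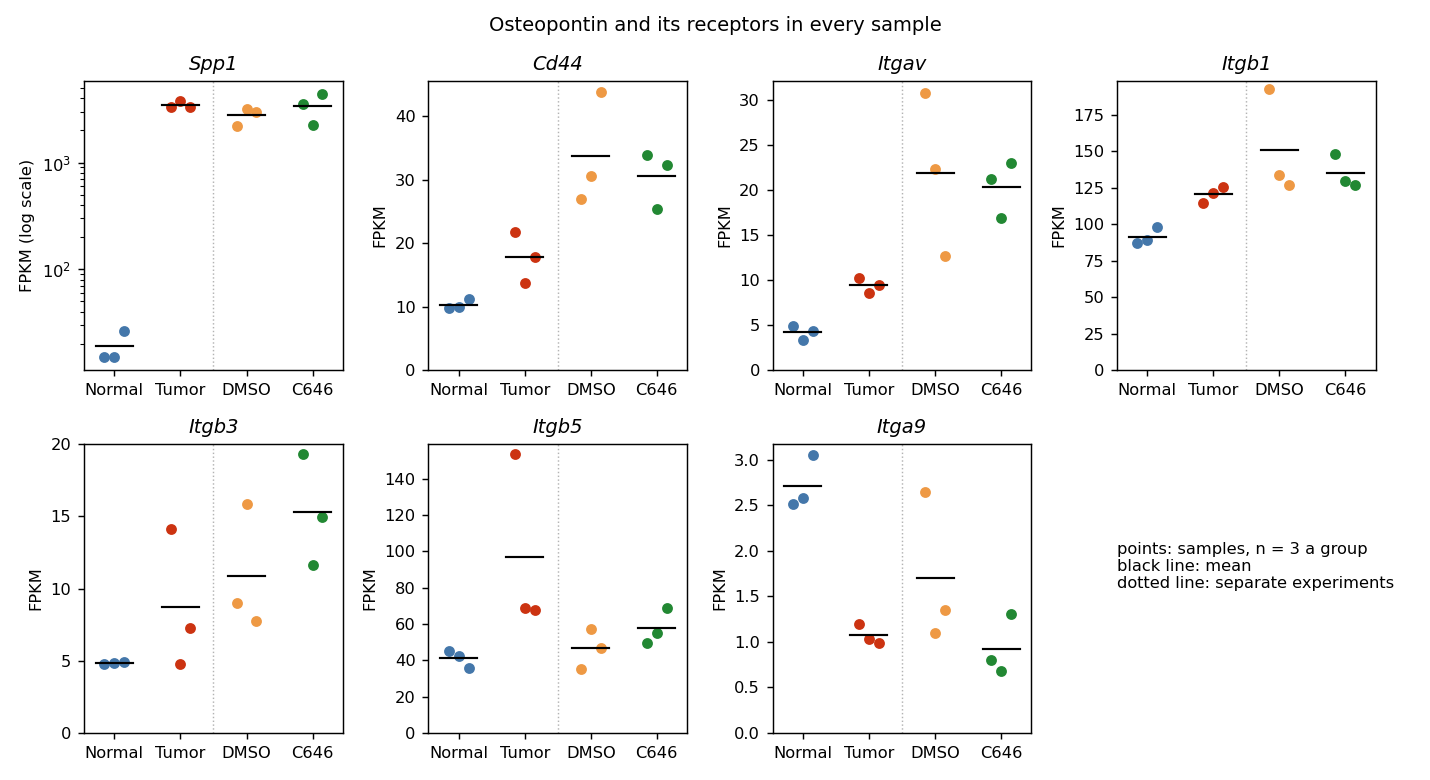
FPKM of the 7 genes in each of 12 samples; the vertical axis is logarithmic for Spp1 and linear from 0 for the others. Points are samples, black lines are group means (n = 3), and the dotted line divides the 2 experiments. Spp1 sits between 15.1 and 26.6 FPKM in Normal and at or above 2192 FPKM in every tumor sample of the other 3 groups.

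Cd44, the hyaluronan receptor, was at 9.791, 9.998 and 11.17 FPKM in Normal and at 21.8, 13.8 and 17.8 FPKM in Tumor. All Tumor samples were above all Normal samples. The log2 difference was 0.76 ± 0.19 (SE, adjusted p = 0.0105, limma), and with FPKM rescaled to the same sum it was 0.51 with an adjusted p of 0.0524.

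Itgav encodes alpha-v, the subunit that the osteopontin receptors with beta-1, beta-3 and beta-5 share. It was at 4.88, 3.40 and 4.39 FPKM in Normal and at 10.2, 8.60 and 9.40 FPKM in Tumor, so that the groups did not overlap. Its log2 level rose by 1.16 ± 0.19 (SE, adjusted p = 0.00142, limma). It kept an adjusted p under 0.05 in all 16 alternatives tried with that test, between 0.000362 and 0.0122.

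Itga9 encodes alpha-9, the partner of beta-1 in the receptor for cleaved osteopontin, and it was the only gene of the 7 that fell. It was at 2.51, 2.58 and 3.06 FPKM in Normal and at 1.201, 1.034 and 0.984 FPKM in Tumor, with no overlap. The log2 difference was -1.31 ± 0.23 (SE, adjusted p = 0.00210, limma). With quantile normalization it was -0.59 with an adjusted p of 0.0569.

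Itgb1 encodes beta-1, which pairs with many alpha subunits besides alpha-v and alpha-9. It was the most abundant receptor RNA of the group in Normal, at 87.2, 88.9 and 98.1 FPKM, and was at 114, 121 and 126 FPKM in Tumor. The groups did not overlap, but the log2 difference was only 0.40 ± 0.12 (SE, adjusted p = 0.0251, limma). The call was lost under both the rescaling (0.15, adjusted p = 0.449) and quantile normalization (0.21, adjusted p = 0.257), and without any of the 3 Normal replicates, Tumor replicate 2 or Tumor replicate 3 (adjusted p = 0.0529 to 0.104).

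Itgb5 encodes beta-5, a partner of alpha-v. It was at 45.2, 42.4 and 35.7 FPKM in Normal and at 153, 69.0 and 67.5 FPKM in Tumor. No samples overlapped, and Tumor replicate 1 stood above the other 2 Tumor samples. The log2 difference was 1.13 ± 0.32 (SE, adjusted p = 0.0178, limma). It was 0.74 (adjusted p = 0.00489) without Tumor replicate 1, and 1.03 with an adjusted p of 0.0677 without Normal replicate 3.

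Itgb3 encodes beta-3, the partner of alpha-v in the receptor of osteoclasts and of growing vessels. It was at 4.77, 4.85 and 4.91 FPKM in Normal, a coefficient of variation of 1.43%, and at 14.2, 4.74 and 7.23 FPKM in Tumor. Tumor replicate 2 lay just below the Normal samples, so the groups overlapped. The log2 difference was 0.70 with a 95% interval of -0.17 to 1.56 and did not pass the test (adjusted p = 0.139, limma). Without Tumor replicate 1, the highest, the difference was 0.27 (adjusted p = 0.322). It passed without Tumor replicate 2 (1.06, adjusted p = 0.0196) and with quantile normalization (0.99, adjusted p = 0.0289).

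Of the 7 genes, 5 did not overlap between the groups with Tumor higher and 1 with Tumor lower, against 33.1%, 35.8% and, in either direction, 68.9% of all names tested. For each of these 6 genes the exact two-sided permutation test gave p = 0.1, the smallest that 3 samples against 3 allow, and for Itgb3 it gave p = 0.4.

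Tumor replicate 1, which was highest for Cd44, Itgav, Itgb3, Itgb5 and Itga9 among the Tumor samples, also had the highest summed skeletal muscle markers, at 5630 FPKM against 3021 and 1920 FPKM. Its summed macrophage markers were 836 FPKM against 533 and 613 FPKM, and its luminal markers 4296 FPKM against 3147 and 3272 FPKM. The part of these in the receptor values was not tested. Over the 10 macrophage markers, 1 was called higher in Tumor and 5 lower, from Cd14 at 1.96 to Mrc1 at -2.97 in log2 fold change. Over all names tested, 28.8% were called higher and 31.7% lower. The summed level of the macrophage markers was 1062 to 1231 FPKM in Normal and 533 to 836 FPKM in Tumor. Lyz2 weighed most in this sum, at 581 to 658 FPKM in Normal and 173 to 213 FPKM in Tumor. C1qa and C1qb, the next highest in Normal, overlapped between the groups and were not called. Of the 8 luminal markers, 6 were called higher and none lower, and their mean log2 level rose by 2.19. The log2 level of Spp1 relative to this mean was 5.37 higher in Tumor. The part of either cell type in the Spp1 difference was not tested. Relative to it, Cd44 was lower in Tumor by a log2 difference of -1.43, Itgav of -1.03, Itgb1 of -1.79, Itgb3 of -1.49, Itgb5 of -1.06 and Itga9 of -3.50. None of the 7 relative values overlapped between the groups, and each exact two-sided permutation p was 0.1, the smallest possible here. Relative values were computed for the 7 genes only, so no share over all names stands beside this. The median log2 fold change over all names was -0.02, well below the rise of the luminal mean. The luminal reference was chosen after seeing the data.

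C646 did not move any of the 7 genes past the test. None of the 7 was called by limma at an adjusted p under 0.05, where 0% of 12083 names were called in either direction. None had an unadjusted p under 0.05 either, against 384 names (3.18%). All 7 overlapped between DMSO and C646, where 8.56% of all names did not overlap, 4.04% with C646 higher and 4.52% with C646 lower. The median log2 fold change was -0.03 over the 7 genes and -0.01 over all names.

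Spp1 was at 2192, 3204 and 2956 FPKM in DMSO and at 3515, 2272 and 4378 FPKM in C646. The C646 samples spanned almost the whole range of the 6 tumors, and the log2 difference was 0.25 with a 95% interval of -0.48 to 0.98 (adjusted p = 0.990, limma). It was 0.040 without C646 replicate 3, 0.087 without DMSO replicate 1 and 0.51 without C646 replicate 2.

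**Figure D2:**
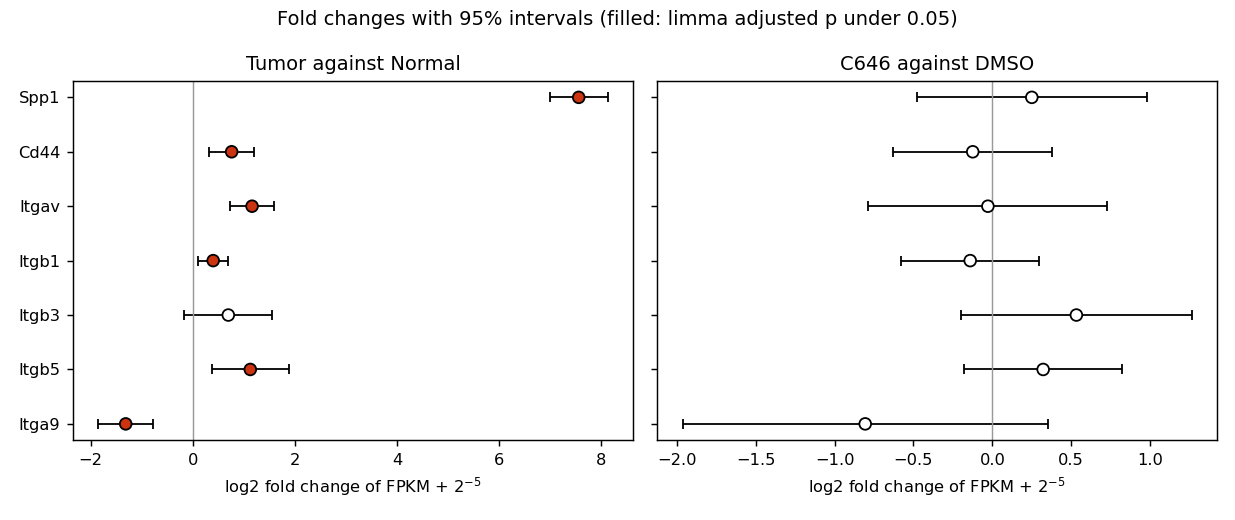
Log2 fold change of FPKM + 2^-5 for the 7 genes, with 95% limma intervals, for Tumor against Normal (left) and C646 against DMSO (right, with its own axis range). Filled points have an adjusted p under 0.05. In the left panel Spp1 stands at 7.56 and Itga9 at -1.31, and in the right panel every interval crosses 0.

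Cd44 was at 26.9, 30.5 and 43.8 FPKM in DMSO and at 33.9, 25.3 and 32.3 FPKM in C646, a log2 difference of -0.12 (95% interval -0.63 to 0.38). Itgav was at 30.7, 22.4 and 12.6 FPKM in DMSO and at 21.2, 16.8 and 22.9 FPKM in C646, a difference of -0.03 (-0.79 to 0.73). Itgb1 was at 193, 134 and 127 FPKM in DMSO and at 148, 130 and 127 FPKM in C646, a difference of -0.14 (-0.58 to 0.30). DMSO replicate 1 had the highest Itgav, Itgb1 and Itga9 of its group and the lowest Spp1, Cd44 and Itgb5.

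The log2 difference of Itgb3 was 0.53 (95% interval -0.20 to 1.27), from 9.01, 15.8 and 7.72 FPKM in DMSO to 19.3, 11.6 and 14.9 FPKM in C646. Itgb5 was at 35.5, 57.5 and 46.8 FPKM in DMSO and at 49.3, 55.0 and 68.7 FPKM in C646, a difference of 0.32 (-0.18 to 0.82). Itga9 was the least abundant of the 7, at 2.64, 1.10 and 1.35 FPKM in DMSO and 0.80, 0.68 and 1.30 FPKM in C646, with the widest interval (-0.81, -1.96 to 0.35). The adjusted p of the 6 receptor genes was 0.990, or 0.999 for Itgav (limma). In this experiment skeletal muscle markers summed to 2.48, 2.49 and 419 FPKM in DMSO and to 421, 2.92 and 374 FPKM in C646. The 8 adipocyte markers summed to 75.3, 150 and 137 FPKM in DMSO and to 161, 364 and 412 FPKM in C646, with no overlap, and none of the 6 that were tested was called (median log2 fold change 3.40). The part of these markers in the values of the 7 genes was not tested.

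Across the 4 groups the genes ranked differently. The 2 experiments were tabulated over different sets of rows, so levels set across them are descriptions and were not tested. Mean Spp1 was 18.9 ± 6.62 FPKM in Normal, 2784 ± 527 in DMSO, 3388 ± 1059 in C646 and 3454 ± 252 in Tumor (SD, n = 3), and only Normal stood apart from its neighbour. Cd44 ranked in the order Normal (10.3 ± 0.746 FPKM), Tumor (17.8 ± 4.001), C646 (30.5 ± 4.56) and DMSO (33.7 ± 8.90), and only the last pair overlapped. Itgav had the same order and the same single overlap, from 4.22 ± 0.752 FPKM in Normal through 9.40 ± 0.801 and 20.3 ± 3.14 to 21.9 ± 9.04. So had Itgb1, from 91.4 ± 5.89 FPKM through 120 ± 5.70 and 135 ± 11.4 to 151 ± 36.2. For Itgb3 every neighbour in the order Normal, Tumor, DMSO and C646 overlapped, from 4.84 ± 0.0692 to 15.3 ± 3.86 FPKM. For Itgb5, lowest in Normal (41.1 ± 4.86 FPKM) and highest in Tumor (96.6 ± 49.2), and for Itga9, lowest in C646 (0.927 ± 0.331) and highest in Normal (2.72 ± 0.297), every neighbour overlapped as well.

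Alpha-v can pair with 5 beta subunits, encoded by Itgb1, Itgb3, Itgb5, Itgb6 and Itgb8. The share of each in their summed FPKM describes their relative RNA levels. Beta-1 also pairs with other alpha subunits, so its share is not RNA available to alpha-v alone. Itgb1 made up 63.1%, 65.0% and 70.4% in Normal and 40.3%, 61.5% and 61.9% in Tumor. Itgb5 made up 32.7%, 31.0% and 25.6% in Normal and 54.1%, 35.0% and 33.2% in Tumor. The mean share of Itgb5 was 10.96 percentage points higher in Tumor and that of Itgb1 11.6 points lower, with no overlap in either case. The shares of a sample have a fixed sum, so these differences are not independent. Mean Itgb1 FPKM itself was 91.4 in Normal and 120 in Tumor. Without Tumor replicate 1 the share differences were 4.31 points for Itgb5 and -4.46 points for Itgb1.

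Itgb3 stayed a minor partner, at 3.51% ± 0.0449 in Normal and 3.65% ± 1.29 in Tumor (SD, n = 3), with overlapping groups. Itgb6, a subunit of epithelial cells, had a mean share of 0.219% in Normal and 0.831% in Tumor, and Itgb8 one of 0.307% and 0.175%, both with no overlap. The FPKM of Itgb8 itself overlapped between Normal and Tumor and was under the filter there. For Itgb1, Itgb5, Itgb6 and Itgb8 the exact permutation p was 0.1, or 0.25 after Benjamini-Hochberg adjustment over 10 tests in both experiments. The smallest p that 3 samples against 3 allow is 0.1, so this test could not reach 0.05 for any share. C646 and DMSO overlapped for all 5 shares (adjusted p = 0.5 to 0.9, exact permutation test), with mean shares of 62.5% and 69.6% for Itgb1, 26.8% and 22.1% for Itgb5 and 7.02% and 5.06% for Itgb3. Without DMSO replicate 1 the difference of C646 against DMSO moved from -7.17 to -2.73 percentage points for Itgb1 and from 4.65 to 0.816 points for Itgb5; leaving out DMSO replicate 2 gave -10.8 points for Itgb1 and 6.99 points for Itgb5, and C646 replicates 1 and 3 gave 7.14 and 2.33 points for Itgb5. For Itgb3, leaving out each replicate gave 1.21 to 3.12 points. Itgb8 was at 0.340 to 0.557 FPKM in Normal and 0.355 to 0.404 FPKM in Tumor, but at 3.17 to 5.93 FPKM in DMSO and 4.72 to 7.93 FPKM in C646. The cause of that step between the experiments was not tested.

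**Figure D3:**
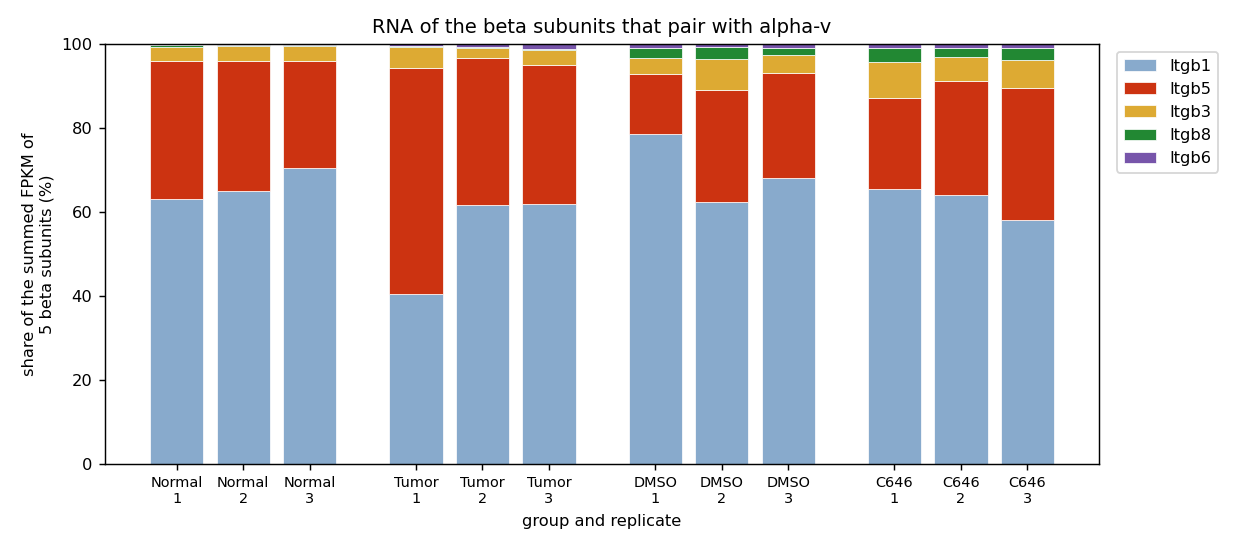
Share in percent of the summed FPKM of Itgb1, Itgb5, Itgb3, Itgb8 and Itgb6 in each of the 12 samples, stacked to 100%. Tumor replicate 1 has the largest Itgb5 share, 54.1%, and the green Itgb8 segment is visible mainly in the DMSO and C646 samples, where its mean is 2.27% and 2.85%.

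Per length, Itgb1 RNA exceeded Itgav RNA by 17.9 to 26.1 times in Normal and 11.2 to 14.1 times in Tumor, and by 5.547 to 10.05 times in the DMSO and C646 tumors. Itgb5 exceeded Itgb3 in every sample, by 7.27 to 9.46 times in Normal and 9.32 to 14.5 times in Tumor, and by 3.63 to 6.06 times in DMSO and 2.56 to 4.74 times in C646. Spp1 was set against 2 other integrin ligands. Its ratio to Mfge8, a milk fat globule protein that binds alpha-v integrins, was 0.0328 to 0.0628 in Normal and 2.23 to 4.12 in Tumor. Its ratio to Fn1, fibronectin, was 0.0465 to 0.123 in Normal and 47.9 to 72.8 in Tumor.

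The relatives of osteopontin in the same gene cluster on chromosome 5 stayed low. These are Dspp (chr5:104170712-104180127), Dmp1 (chr5:104202613-104214102), Ibsp (chr5:104299171-104311469) and Mepe (chr5:104325329-104338611), which encode matrix proteins of bone and tooth. None of the 4 reached the filter, so 0 were tested. Dmp1, the neighbour with the highest level, was listed at 0, 0 and 0.0332 FPKM in Normal and at 0.618, 0.668 and 1.35 FPKM in Tumor. Ibsp and Mepe were listed at 0 in all 6 of these samples, and Dspp in all but Tumor replicate 1.

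Among other ligands of the same integrins, 3 of 11 tested were called higher in Tumor and 8 lower, with a median log2 fold change of -1.49. Beside this and the list counts that follow stand all names tested, of which 28.8% were called higher and 31.7% lower. Vitronectin (Vtn, log2 fold change -3.79), nidogen-1 (Nid1, -3.67), fibronectin (Fn1, -2.21) and Tgfbi (-1.80) had the largest changes and fell, while Tnc, Thbs1 and Mfge8 rose by 1.74, 1.72 and 1.39. The 7 fibroblast markers tested fell in 6 cases, and the seventh, Col1a1, was at -0.78 and not called. The part of that shift in the ligand values was not tested.

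Of 5 other integrin subunits linked to osteopontin or alpha-v, 2 were called higher and 3 lower. Over all names tested, 60.5% were called in either direction. Itgb6, Itgb7 and Itga4 reached the filter of 1 FPKM in 1 group only, and Itgb8, low in both groups, was not tested. The count of calls is therefore partly set by the filter. Itgb6 was at 0.252 to 0.382 FPKM in Normal and 1.42 to 2.35 FPKM in Tumor (log2 fold change 2.45), and Itga8 rose by 2.37. Itgb7 fell from 44.2 to 61.9 FPKM in Normal to 0.183 to 0.690 FPKM in Tumor (-7.14), and its partner Itga4, the leukocyte subunit alpha-4, fell by 4.53 on the log2 scale. Of 12 further integrin subunits tested, 3 were called higher and 7 lower: the leukocyte subunits Itgal (-5.16) and Itgb2 (-3.61) and the laminin receptor subunit Itga7 (-3.50) fell, and Itgb4, the hemidesmosome subunit of epithelia, rose by 3.76. All 8 T and B cell markers were called lower in Tumor, with Cd4 at -6.28 the least changed, and their part in the leukocyte integrin values was not tested.

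Genes around Cd44 moved in both directions. Of 8 tested partners, 4 were called higher and 3 lower, beside 28.8% and 31.7% of all names tested. The splicing regulators Esrp2 and Esrp1, which favour the epithelial splice forms of Cd44, rose by 3.06 and 3.03 on the log2 scale. Hgf, whose receptor works with Cd44, fell by 4.69, and the cytoskeletal linker gene Msn fell by 1.43. Hgf was low throughout, at 1.17 to 1.49 FPKM in Normal and 0.122, 0 and 0 FPKM in Tumor. It passed the filter through Normal alone, and the size of its fold change depends on the pseudocount. The files give 1 value per gene name, so splice forms of Cd44 were not measured. Of 6 tested genes of the hyaluronan list, 1 was called higher and 3 lower, with Lyve1 at -4.33, Hmmr at 3.06, Tnfaip6 at -2.46 and Srgn at -1.35. Srgn encodes a proteoglycan and is not itself a hyaluronan gene.

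Of 10 enzymes that cleave or modify osteopontin, 1 was called higher and 6 lower. The matrix proteases Mmp9 (log2 fold change -4.10), Mmp2 (-2.61) and Mmp3 (-2.34) fell, and the macrophage protease Mmp12 rose by 2.06. Of 19 genes of integrin signalling, 5 were called higher and 7 lower, or 2 and 7 after rescaling to the same sum. Over all names tested, 28.8% were called higher and 31.7% lower, so the count before rescaling lies near the background. The median log2 fold change was 0.03 over these genes and -0.02 over all names. Tns1 (log2 fold change -5.02) and the leukocyte and platelet adaptors Apbb1ip (-3.72) and Fermt3 (-3.30) fell, and the epithelial kindlin Fermt1 rose by 1.87.

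Of 16 tested transcription factors listed as possible regulators of Spp1, 10 were called higher and 4 lower, with a median log2 fold change of 0.88. Over all names tested, 28.8% were called higher and 31.7% lower. The Spp1 window above held a RUNX site but no match to the AP-1 site or GC box. Sites of the ETS, Myb and vitamin D receptor families were not searched. Of the RUNX genes, Runx1 rose by 1.11, Runx2 was at -0.57 and not called, and Runx3 fell. Cbfb, of the same list, was called lower at -0.35. The tested Fos and Jun genes, Fos, Fosl2, Jun, Junb and Jund, were all called higher, though the window held no AP-1 match. The vitamin D receptor Vdr rose by 2.71 and Etv5 by 2.31, while Ets1 and Runx3 fell by 3.74 and 2.79. No gene of any of these lists that was called changed its direction under rescaling, median ratio scaling or quantile normalization. In C646 against DMSO none of the tested genes of these lists was called, where 0% of all names were.

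**Figure D4:**
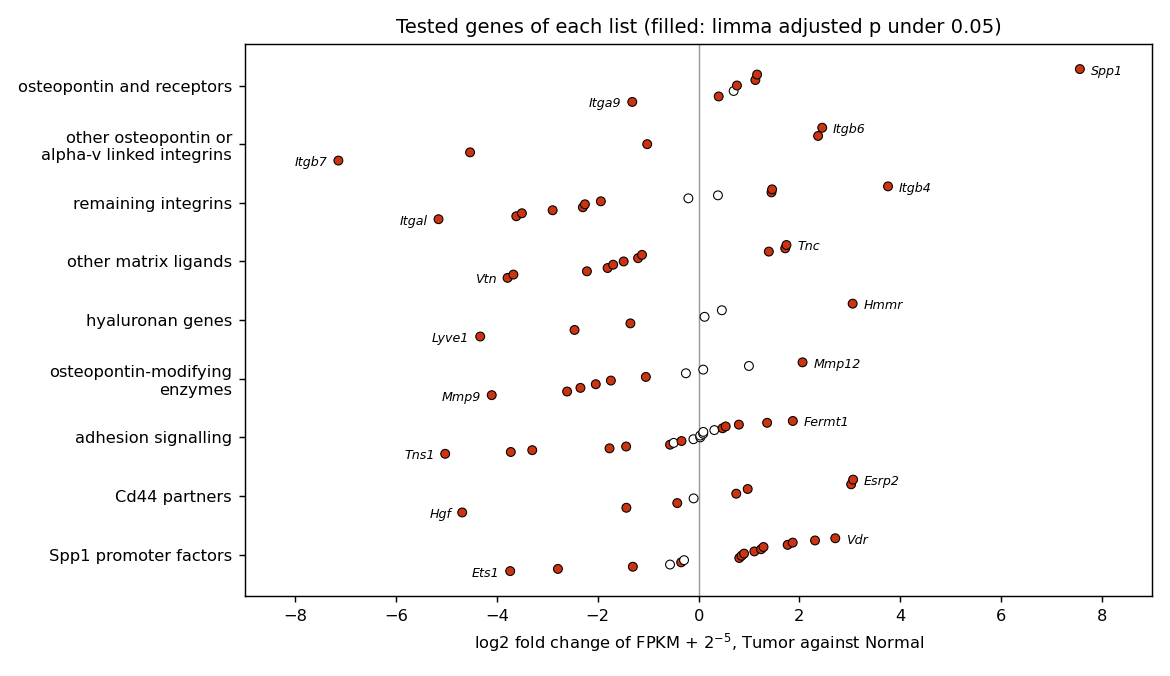
Log2 fold change of FPKM + 2^-5, Tumor against Normal, for the tested genes of each list; filled points have a limma adjusted p under 0.05, and the highest and lowest called genes are named. Spp1 at 7.56 lies beyond every other gene drawn, and most matrix ligands and modifying enzymes lie below 0.

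The names whose profile over the 12 samples was most like that of Spp1 were sought among 13231 names, by the root mean square distance between log2(FPKM + 2^-5) profiles centred on each gene's mean. The nearest was Lcn2, encoding the secreted siderophore-binding protein lipocalin-2, at a distance of 0.762, followed by the collagen gene Col9a1 (0.768), the amino acid transporter gene Slc38a3 (0.781), the milk protein gene Lalba (0.818) and Gm19303 (0.837). Lcn2 was at 98.9 to 135 FPKM in Normal and 7116 to 12509 FPKM in Tumor. Lalba, alpha-lactalbumin, was at 7.59 to 53.8 FPKM in Normal and 1290 to 2651 FPKM in Tumor. Gm19303 was listed at 0 in all 3 Normal samples.

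The nearest to Cd44 were Hspa8 (0.192), Gas5 (0.212) and Zfp710 (0.236), and the nearest to Itgb3 were Rgma (0.231), Lgi4 (0.247) and Nrbp2 (0.257). These distances are smaller than those of Spp1, whose range of levels is much wider. The 12 points behind each distance share their libraries and fall into 2 experiments, and the distances are descriptions.

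**Figure D5:**
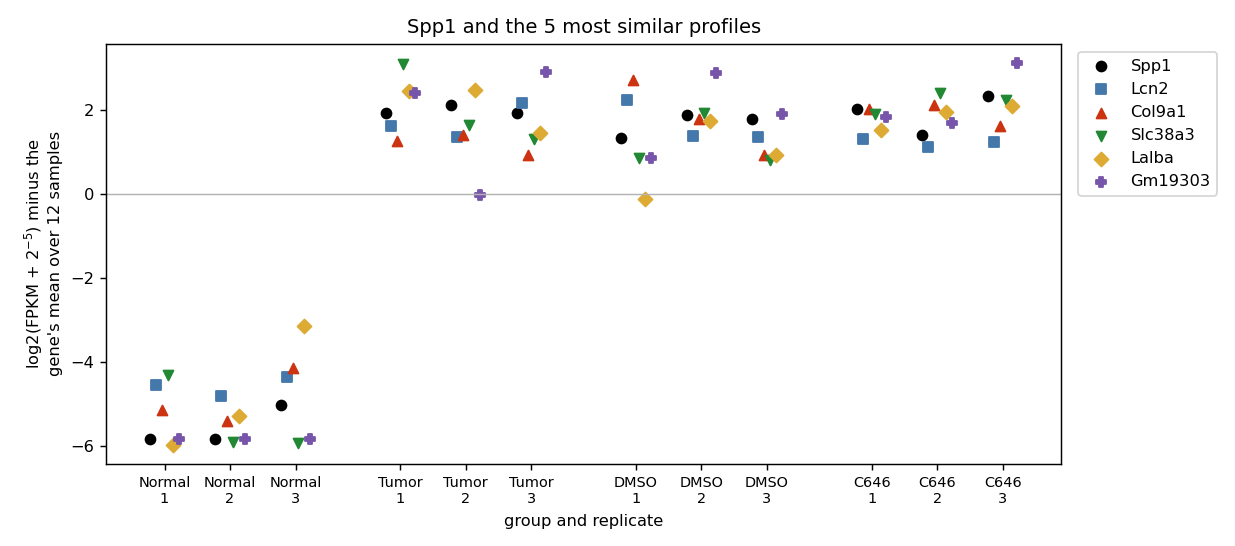
Log2(FPKM + 2^-5) minus each gene's mean over the 12 samples, by group and replicate, for Spp1 and the 5 most similar names. All 6 genes lie below their mean in the 3 Normal samples; in the tumors Lalba in DMSO replicate 1 and Gm19303 in Tumor replicate 2 come closest to it.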

How the data were processed

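RNA-seq libraries were unstranded and made from poly-A RNA. Per the labels and methods, reads trimmed of adaptors were aligned by the authors to the mm10 genome (TopHat 2.1.1), and Cufflinks 2.2.1 gave FPKM for each gene; the deposited FPKM tables, 1 per sample, were used as they are. Unnamed rows were left out, and a repeated name took the sum of its rows. The files of Normal and Tumor list 23704 names and those of DMSO and C646 23691. Rows that join several names were not used. Samples were grouped by the labels. Total depth is not in the files; whole-read steps put Tumor replicate 3 at 1.53 times the depth of Tumor replicate 1.

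Each experiment was fitted on its own in R 4.3.3 by limma 3.58.1 (lmFit and eBayes, trend on) on log2(FPKM + 2^-5), for names that reached 1 FPKM in 3 or more of 6 samples, with Benjamini-Hochberg adjustment over all names at 0.05. Fold changes on this scale understate the change of low genes. A name can pass the filter through 1 group alone, in the lists and among all names alike. Single values were compared with exact permutation tests (scipy 1.17.1). The limma fit was tested on simulated data in which each gene had the same spread in both groups. Unequal spreads, as those of Spp1 and Itgb3 in Normal and Tumor, were not covered. The members, gene lists and tests were chosen with earlier results of these data known. Named genes were the members, Itgb6 and Itgb8, and up to 4 called genes with the largest absolute fold change per pathway list. The highest or lowest of some cell type lists and the names most like Spp1, Cd44 and Itgb3 were also named. Mfge8, Tnc, Thbs1 and the 4 gene neighbours of Spp1 were named after their values were seen. Runx1, Runx2, Cbfb, the Fos and Jun genes, Lyz2, C1qa and C1qb were named outside these rules. Alternatives were pseudocounts of 1 and 0.25, other filters, 3 scalings, the highest row of a repeated name, no trend, the replicate number as a block, and each replicate left out. Promoters are from RefSeq, gene positions from GENCODE vM21.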

Additional observations from a re-analysis of the deposited data

How the results depend on the processing

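Of 16 alternatives per comparison, Spp1 and Itgav in Tumor against Normal passed the test in all. Values below are log2 fold changes. With FPKM rescaled to the same sum, 3 of the 7 genes were called higher, Cd44 was at 0.51 (adjusted p = 0.0524) and Itgb1 at 0.15 (0.449). With quantile normalization 0 were called lower, Itgb1 was at 0.21 (0.257), Itga9 at -0.59 (0.0569) and Itgb3, now called, at 0.99 (0.0289). With a filter of 5 FPKM, 0 were called lower, since Itga9 was no longer tested. Leaving out each replicate in turn gave 3 to 5 genes called higher, and ranges of 0.37 to 0.45 for Itgb1, 0.27 to 1.06 for Itgb3 and 0.74 to 1.33 for Itgb5; without Normal replicate 3, Itgb5 was at 1.03 (0.0677). It gave 2570 to 4172 names called lower in all, with 2570 without Normal replicate 3 and 2686 without Normal replicate 2. Relative to the luminal markers, an alternative chosen after seeing the data, the sign turned for Cd44 (-1.43), Itgav (-1.03), Itgb1 (-1.79), Itgb3 (-1.49) and Itgb5 (-1.06). Names outside the 7 genes were not set against these markers. The causes were not tested.

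In C646 against DMSO, where no gene of the 7 passed the test, Cd44 turned to 0.0020 and Itgav to 0.098 with rescaling, and Itgav to 0.0066 with quantile normalization. Leaving out each replicate gave 0.040 to 0.51 for Spp1, -0.27 to 0.080 for Cd44, -0.38 to 0.26 for Itgav, -0.25 to 0.048 for Itgb1, 0.32 to 0.84 for Itgb3, 0.14 to 0.49 for Itgb5 and -1.07 to -0.44 for Itga9. Over all names, 12 were called lower without DMSO replicate 2 and 0 without any other replicate. Leaving out each replicate moved the Itgb3 share in Tumor against Normal between -0.524 and 0.768 percentage points, and the Itgb6 share in C646 against DMSO between -0.109 and 0.0374.

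The pairing of samples by replicate number was checked. After subtracting group means, same-numbered samples correlated across names at -0.098 to 0.010 in the first experiment and 0.070 to 0.17 in the second. Samples with different numbers were not correlated, so whether same-numbered samples share more than a number was not tested. With the replicate block, 3439 names were called higher and 3827 lower in Tumor, Itgb1 was at 0.40 with an adjusted p of 0.0620, and no other call of the 7 genes changed. Without read totals, no counting error could be given, and Itga9, Itgb6, Itgb8 and Dmp1 were near the filter of 1 FPKM.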
